A study of Caenorhabditis elegans with 4 samples.

Results

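RNA polymerase II peaks of at least 3200 bp, called wide peaks here, were described along chromosomes II, III, IV, V and X of Caenorhabditis elegans larvae at stage L3. They were chosen by width alone from the combined peak list deposited for the series: 379 of the 3479 peaks on these 5 chromosomes (10.9%) were wide, and the remaining 3100 are called narrower. The whole list, with all chromosomes, held 6507 peaks. Chromosome I and any other rows outside these 5 chromosomes enter no density, share or ranking of chromosomes given here.

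Chromatin came from whole wild-type hermaphrodites of strain N2 (the DR subclone, Tc1 pattern I), grown at 20 °C and fixed with 2% formaldehyde. The series has 2 ChIP libraries, precipitated with the mouse monoclonal antibody 8WG16, and 2 libraries of input DNA, the chromatin before precipitation. Antibody and stage follow the labels of the samples, while the protocol text they share names embryos and a serum against GFP. One list stands for both replicates together, with no read count, height or value per replicate, so no spread between replicates can be given and depth is unknown. Larvae were used whole, so a region occupied in few cells and one occupied lightly in many cells cannot be told apart, and no tissue marker was checked because no peak could be assigned to a gene.

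RNA polymerase II makes the messenger RNAs of all protein-coding genes. Its largest subunit, the product of ama-1, carries a tail of repeated heptapeptides that 8WG16 recognises, and the polymerase is found at start sites, across the bodies of active genes and past their ends. Genes of C. elegans lie close together and many are transcribed as operons, in which 1 promoter serves several genes in a row. Conserved and essential genes are concentrated in the central parts of the autosomes. In hermaphrodites X is dosage-compensated in somatic cells and carries few of the genes used in the germ line.

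Wide peaks were a small share of the list and a large share of the sequence under it. They covered 1949 kb, which was 45.0% of the 4336 kb under peaks on the 5 chromosomes and 2.29% of the length of these chromosomes. Per chromosome this share of covered sequence was highest on V at 50.1%, followed by X at 46.5%, III at 46.4%, II at 43.3% and IV at 40.0%. Wide peaks made up 12.3% of the peaks on V (exact 95% binomial interval 9.77 to 15.3) and 12.5% on X (9.94 to 15.3). They made up 10.2% on II (8.02 to 12.6), 10.3% on III (8.23 to 12.8) and 9.87% on IV (7.95 to 12.1). V thus had the fewest wide peaks per Mb but the largest share of its covered sequence in them, and all 5 intervals for the share of peaks overlapped. These shares follow from the width rule and carry no test. They count listed peaks only. The q-values imply 103 further ranks ahead of the first listed row, of unknown chromosome and width, that could change them.

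**Figure D1:**
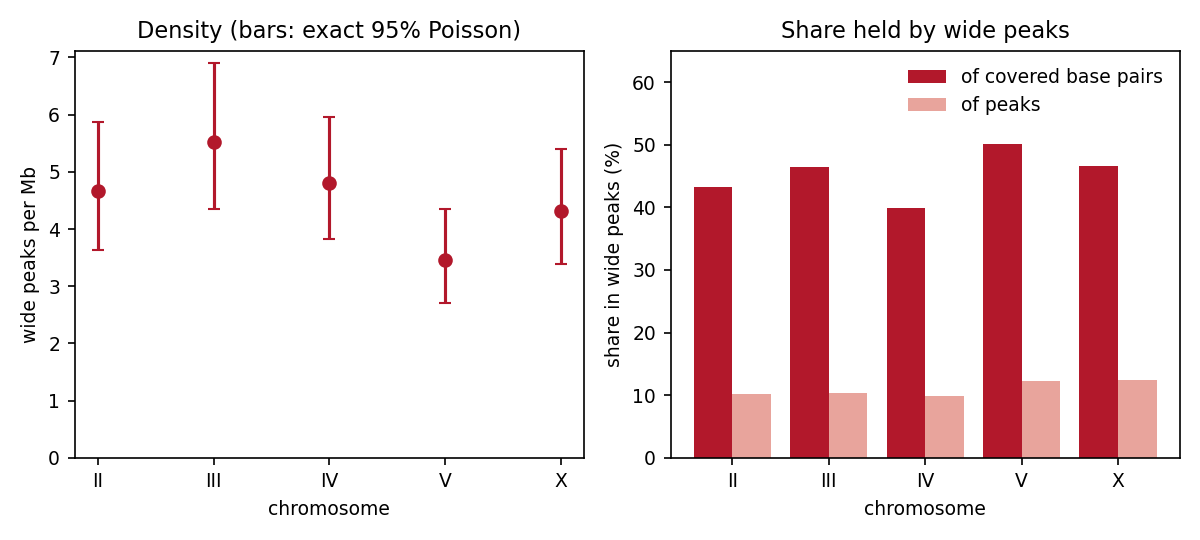
Density of wide peaks (left, wide peaks per Mb on each chromosome with exact 95% Poisson intervals) and the share held by wide peaks (right, percent of covered base pairs in dark bars and percent of peaks in light bars). Densities lie between 3.45 per Mb on V and 5.52 per Mb on III, while the share of covered base pairs is highest on V.

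Most wide peaks lay not far above the threshold. Their median width was 4558 bp, with quartiles of 3758 and 5858 bp. The class of 3200 to under 4000 bp held 126 peaks, that of 4000 to under 4800 bp held 81, that of 4800 to under 6400 bp held 99, and that of 6400 to under 9600 bp held 60. A further 13 peaks reached 9600 bp, and these held 156 kb, or 3.59% of all covered sequence. Median widths were close between chromosomes, from 4229 bp on III to 4925 bp on V. The smallest members were 3201 bp on II (160574 to 163774), 3206 bp on X (17214127 to 17217332) and 3207 bp on V (9074247 to 9077453). The nearest peaks below the threshold were 3197 bp (7774399 to 7777595) and 3193 bp (12811803 to 12814995), both on V, and 3186 bp on III (6990934 to 6994119), so the threshold fell in a continuous run of widths.

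**Figure D2:**
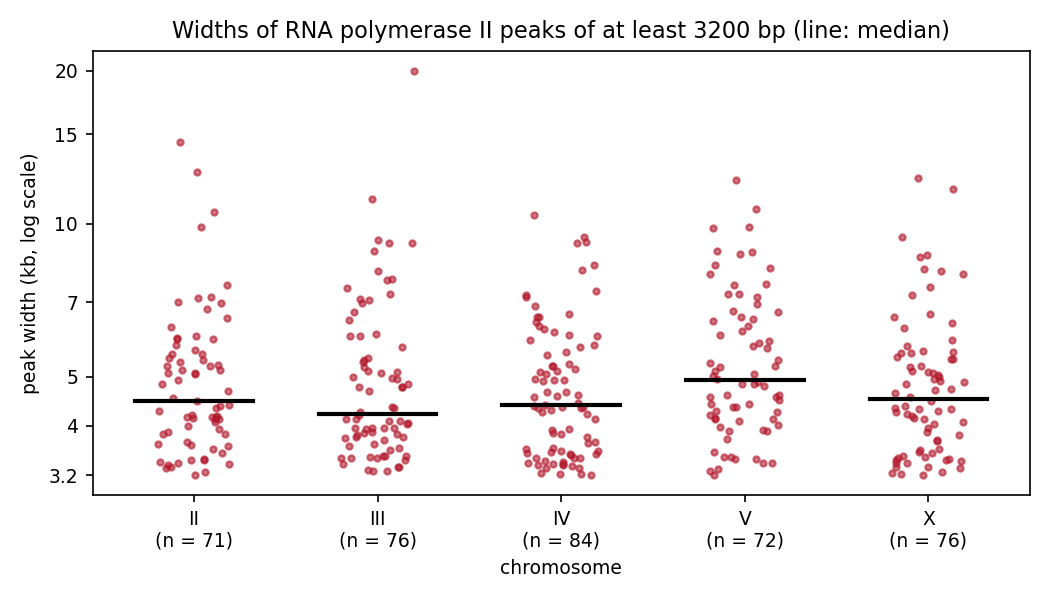
Width of each wide peak (kb, log scale) by chromosome, with 1 point per peak and a line at the median. The medians lie between 4229 and 4925 bp, and the single widest peak, 19973 bp, is on III.

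The q-value is the authors' own significance value for enrichment over input, adjusted for the number of regions, and belongs to the same measurement as the width. It does not give the strength of enrichment. It is given here as a description. The median −log10 q was 48.8 for wide peaks, 11.0 for peaks of 1000 to under 3200 bp, 4.45 for those of 400 to under 1000 bp and 3.19 for those under 400 bp. Among the listed peaks of the 5 chromosomes, wide peaks held 40 of the 50 lowest q-values, 70 of the lowest 100 and 223 of the lowest 379. The q-values imply 103 ranks ahead of the first listed row of the whole list, of unknown chromosome and width, which these counts leave out. Low q and great width thus named overlapping but different sets of listed peaks. Width and −log10 q had a Spearman's rho of 0.30 (Pearson's r 0.34) within the 379 wide peaks, which all come from the same libraries. The median was higher in each wider class, at 31.0 for 3200 to under 4000 bp, 47.1 for 4000 to under 4800 bp, 51.4 for 4800 to under 6400 bp, 77.0 for 6400 to under 9600 bp and 160 for 9600 bp and wider.

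A minority of wide peaks had a high q for their size. Among the wide peaks 42 (11.1%) had a −log10 q under 10, and their median width was 3722 bp, while 92 (24.3%) had one over 100, with a median width of 5324 bp. Among all 3479 peaks the shares were 72.5% under 10 and 3.91% over 100. In the class of 1000 to under 3200 bp they were 46.9% and 4.64%. The highest q-value of a wide peak was 0.00687, for the peak on III at 2636048 to 2639416, and the next of these chromosome maxima was 0.00395, for the peak on V at 7075519 to 7082025. On II it was 0.00162 (the peak at 5590484 to 5593848), on IV 0.00103 (at 6327270 to 6330580) and on X 0.000125 (at 5814346 to 5817726). The peak on V was 6507 bp wide, so a broad region was listed with a q near the end of the list, whose largest value was 0.01 after rounding. Of the 42 with a −log10 q under 10, 13 were on III, 8 each on IV and V, 7 on X and 6 on II. Wide peaks of any q numbered 76 on III, 84 on IV, 72 on V, 76 on X and 71 on II.

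Between chromosomes and between blocks of 1 Mb, wide peaks were spread more evenly than narrower ones, relative to their number. Their density was 5.52 per Mb on III (exact 95% Poisson interval 4.35 to 6.91), 4.81 on IV (3.83 to 5.95), 4.66 on II (3.64 to 5.87), 4.31 on X (3.40 to 5.39) and 3.45 on V (2.70 to 4.35). III exceeded V 1.60-fold (exact conditional 95% interval 1.14 to 2.24), the largest of the ratios between chromosomes and picked as such, while neighbouring chromosomes in this order had overlapping intervals. For narrower peaks the densities were 47.8 per Mb on III and 24.6 on V. X held 76 wide peaks, 4.31 per Mb, against 303 on the autosomes II to V, 4.50 per Mb, a ratio of 0.958 (0.735 to 1.24). A ratio of 1 thus lay inside the interval for X. These densities count listed peaks only, and their intervals do not allow for regions at the ranks ahead of the first listed row.

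In full 1 Mb blocks, 82 in all, wide peaks numbered 4.41 ± 2.30 (SD over blocks) and narrower peaks 36.1 ± 18.6. At this block size, the variance of wide peaks was 1.20 times their mean, close to the value of 1 that independent placement gives. That of narrower peaks was 9.57 times theirs. Since counts differ, the variance beyond the mean was also divided by the squared mean, which gave 0.0458 for wide and 0.237 for narrower peaks. These blocks do not show grouping over shorter distances. At 3 to 5 kb from a wide peak, other wide peaks covered 5.83% of base pairs, against 4.93% beside narrower peaks. Wide peaks covered 2.29% of the chromosomes in all. Wide counts ran from 0 to 10 per block and narrower counts from 6 to 87. The 2 blocks with 10 wide peaks were 9 to 10 Mb on II, with 38 narrower peaks, and 11 to 12 Mb on IV, with 67. The 2 blocks with 0 wide peaks were 18 to 19 Mb on V, with 17 narrower peaks, and 12 to 13 Mb on IV, with 47. Adjacent Mb of IV thus held 10 and 0 wide peaks, with 67 and 47 narrower ones. Across the 82 blocks the counts of wide and narrower peaks went together, with Spearman's rho of 0.58 (Pearson's r 0.52). Within chromosomes rho was 0.67 on X (17 blocks), 0.64 on II (15), 0.63 on V (20), 0.44 on III (13) and 0.41 on IV (17). Blocks share the libraries and neighbouring blocks are not independent, so no p is given.

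**Figure D3:**
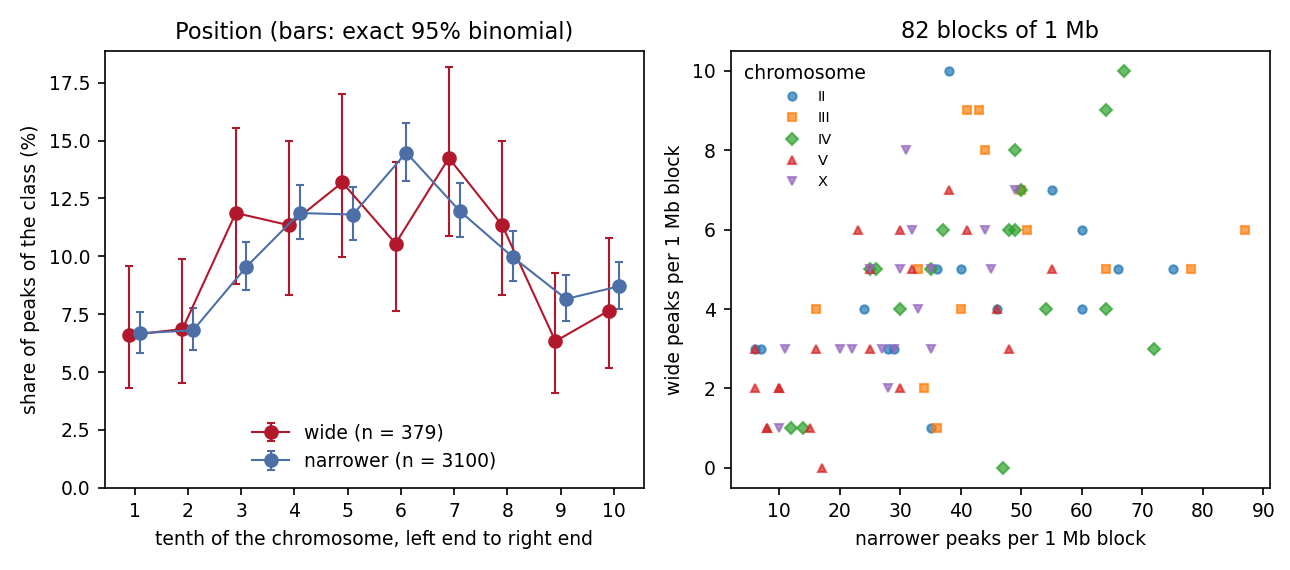
Share of peaks (percent of each class, with exact 95% binomial intervals) in each 10% of the chromosome length for wide and narrower peaks (left), and wide against narrower peak counts in 82 blocks of 1 Mb, by chromosome (right). Both classes are sparser toward the ends, and blocks with more narrower peaks tend to hold more wide ones.

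Wide peaks lay in the chromosome centres about as often as narrower ones. The middle 33.3% of the length held 155 of 379 wide peaks (40.9%, 35.9 to 46.03) and 1301 of 3100 narrower peaks (42.0%, 40.2 to 43.7). The difference was −1.07 percentage points, with a Newcombe 95% interval of −6.21 to 4.24. Among 10% bins of the length, wide peaks had their highest share in the 7th (14.2%) and their lowest in the 9th (6.33%), and narrower peaks their highest in the 6th (14.5%) and their lowest in the 1st (6.68%). The single chromosomes went both ways, with wide peaks more central on 3 of 5. On III the centre held 31.6% of wide and 46.6% of narrower peaks, a difference of −15.0 points (−25.1 to −3.26), the only 1 of the 5 intervals without 0 and not adjusted for 5 looks. Without III the pooled difference was 2.51 points (−3.29 to 8.46). On X the centre held 40.8% of wide and 34.5% of narrower peaks, a difference of 6.33 points (−4.81 to 18.2).

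Density by position differed between chromosomes. On IV the centre had 6.52 wide peaks per Mb (exact Poisson 4.62 to 8.95), the left part 5.49 (3.76 to 7.76) and the right part 2.40 (1.31 to 4.03). On III the right part was densest at 6.75 per Mb (4.59 to 9.58), with 5.23 in the centre and 4.57 in the left part, while narrower peaks reached 66.9 per Mb in the centre and 42.3 in the right part. On V the centre had 4.75 per Mb, against 2.73 in the left and 2.88 in the right part. On II the values were 3.54, 5.71 and 4.72 per Mb from left to right, and on X 3.91, 5.27 and 3.74. The centre was thus the densest of the parts for wide peaks on II, IV, V and X, with intervals that overlapped those of the other parts except between the centre and the right part of IV.

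Most wide peaks had company within a few kb, at rates that depended on the distance and on the class they were set against. Gaps were measured edge to edge, so a peak's own width does not enter them. The smallest gap beside a wide peak was 201 bp and the smallest in the list of these chromosomes 200 bp, so regions closer than this do not occur as separate rows. Another peak lay within 500 bp of 129 wide peaks (34.04%, 29.3 to 39.05), against 27.4% of narrower peaks, a difference of 6.68 points (Newcombe 1.82 to 11.8). Within 1 kb the shares were 43.5% of wide and 39.1% of narrower peaks (difference 4.44 points, −0.760 to 9.75). Within 5 kb they were 65.4% and 68.3% (−2.89 points, −8.07 to 2.01), a difference that was −14.5 points on II (−26.6 to −3.00) and −0.146 points (−5.86 to 5.18) without II. Within 10 kb they were 79.2% and 79.4% (−0.199 points, −4.79 to 3.86). Wide peaks thus had a close neighbour, within 500 bp, more often than all narrower peaks pooled, while at 1, 2, 5 and 10 kb the intervals included 0. The distance of 500 bp was used in addition to the planned 1, 2, 5 and 10 kb. At 500 bp the share of wide peaks ran from 19.4% on V to 46.1% on III. At 1 kb the difference was 16.7 points on III (4.94 to 28.0), while the intervals of the other chromosomes included 0.

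The narrower peaks are mixed in this respect, and the order changed with their width. Within 2 kb a neighbour was found for 52.5% of wide peaks, 61.7% of peaks of 1000 to under 3200 bp, 61.5% of those of 400 to under 1000 bp and 43.01% of those under 400 bp. The difference was −9.21 points from the 1000 to under 3200 bp class (−15.2 to −3.24) and 9.50 points from the class under 400 bp (3.85 to 15.1). The difference from the 1000 to under 3200 bp class was −6.12 points at 1 kb (−12.04 to −0.0832), −6.72 points at 5 kb (−12.4 to −1.17) and −3.33 points at 10 kb (−8.31 to 1.31). From the 400 to under 1000 bp class it was −9.00 points at 2 kb (−15.01 to −2.97), −10.4 points at 5 kb (−16.1 to −4.89) and −5.13 points at 10 kb (−10.1 to −0.492). At 500 bp it was −4.25 points (−9.89 to 1.61) from the 1000 to under 3200 bp class and 16.2 points (11.2 to 21.5) from the class under 400 bp. The higher share of wide peaks at 500 bp thus held against the shortest peaks, while wide peaks had a neighbour less often than the 1000 to under 3200 bp class at 1, 2 and 5 kb and than the 400 to under 1000 bp class at 2, 5 and 10 kb.

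**Figure D4:**
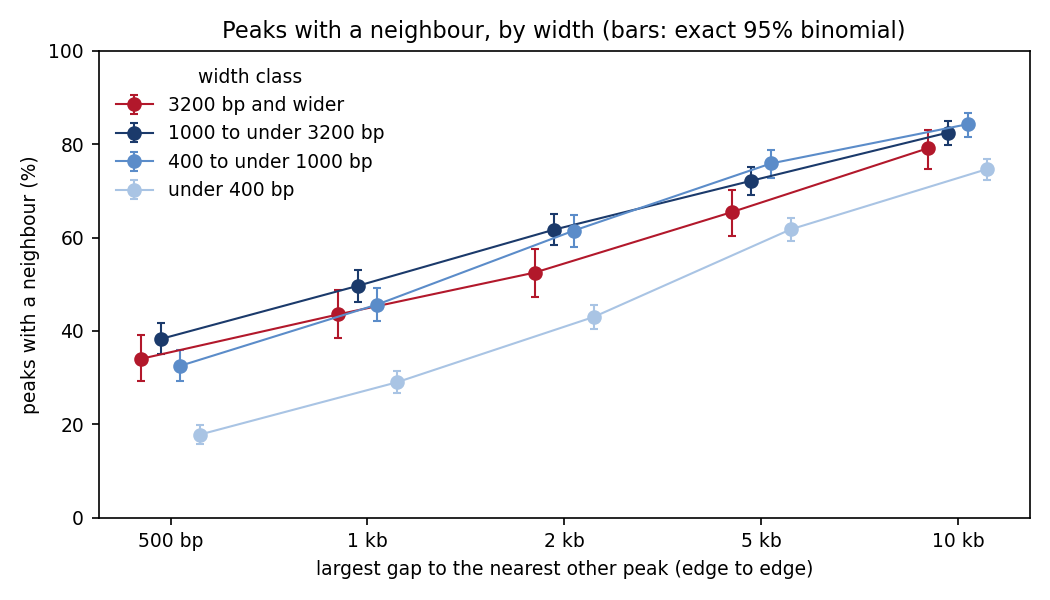
Percent of peaks with another peak within a given edge-to-edge gap, from 500 bp to 10 kb, in 4 width classes with exact 95% binomial intervals. Wide peaks lie between the class under 400 bp and the classes of 400 to under 3200 bp at 2 kb, where they reach 52.5%, and at 10 kb, where they reach 79.2%.

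Close neighbours of wide peaks were in most cases under 3200 bp wide. The 129 wide peaks with a neighbour within 500 bp had 142 such neighbours, with a median width of 1074 bp (quartiles 623 and 2481 bp) and a median −log10 q of 8.58. For narrower peaks the 972 neighbours within 500 bp had a median width of 882 bp and a median −log10 q of 6.14. Of these close neighbours, 24 of the 142 beside wide peaks (16.9%) and 118 of the 972 beside narrower peaks (12.1%) were themselves wide. A neighbour within 500 bp stood on both sides of 13 wide peaks. Within 5 kb, 71 wide peaks (18.7%) had neighbours on both sides and 177 (46.7%) on 1 side, against 22.4% and 46.0% of narrower peaks.

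A wide peak was the nearest neighbour of wide and of narrower peaks at similar rates. The nearest peak was itself wide for 46 of 379 wide peaks (12.1%, exact binomial 9.02 to 15.9) and for 349 of 3100 narrower peaks (11.3%, 10.2 to 12.4), where wide peaks were 10.9% of the list. The difference was 0.879 points (−2.26 to 4.70), and wide peaks were higher on 3 of 5 chromosomes. Without III it was −0.0857 points (−3.44 to 4.14). On III the shares were 15.8% and 11.1%, and on II 7.04% and 10.03%, with intervals of the difference that included 0 on both. Consecutive wide peaks were separated by a median of 124 kb (quartiles 50.1 and 284 kb) with a median of 5 narrower peaks between them. The median spacing was 74.0 kb on III, 105 kb on II, 123 kb on IV, 140 kb on X and 198 kb on V.

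A small number of wide peaks did form groups. Gaps of at most 10 kb joined 72 wide peaks (19.0%) into 34 groups, 30 of 2 peaks and 4 of 3, and the other 307 stood alone at that distance. No matching share was worked out for narrower peaks or for independent placement, so the 19.0% is a description only. The groups of 3 lay on III at 4491118 to 4508676 and at 12595553 to 12617839, on X at 11463895 to 11486225 and on II at 15193499 to 15214414. Peaks filled 95.4%, 92.1%, 92.9% and 76.7% of these spans. The spans of groups of 2 were filled to between 53.4% (III, 6339099 to 6352894) and 98.4% (IV, 4395142 to 4407918). III had 20 of the 72 grouped peaks, IV and V 14 each, X 13 and II 11. The closest pair of all was on IV, where a peak of 6548 bp (4395142 to 4401689) and 1 of 6021 bp (4401898 to 4407918) were 208 bp apart. In 14 places a gap of at most 1 kb separated consecutive wide peaks, 6 of them on III and 0 on II.

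The sequence just outside wide peaks was more covered by other peaks than the chromosomes as a whole. Within 10 kb of their edges, 11.3% of base pairs lay in other peaks, against 10.9% beside narrower peaks, and 5.10% of the 5 chromosomes was covered in all. The difference of 0.365 points was smaller than its spread over the 5 chromosomes (SD giving −2.05 to 2.78). Per chromosome the values beside wide and narrower peaks were 15.2% and 11.0% on III, 11.4% and 13.1% on IV, 10.5% and 9.32% on X, 9.62% and 11.2% on II, and 9.44% and 8.84% on V. The direction differed between III and II, and without III the pooled difference was −0.597 points. By distance, coverage beside wide peaks was highest at 500 to 1000 bp from the edge, at 19.3%, against 15.4% beside narrower peaks pooled and 22.3% beside those of 1000 to under 3200 bp. That class also had more of its flanking 10 kb covered, at 13.0%, than the 11.3% of wide peaks. It was 9.64% at 5 to 7.5 kb and 5.01% at 15 to 20 kb from wide peaks, against 9.44% and 6.50% from narrower peaks.

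**Figure D5:**
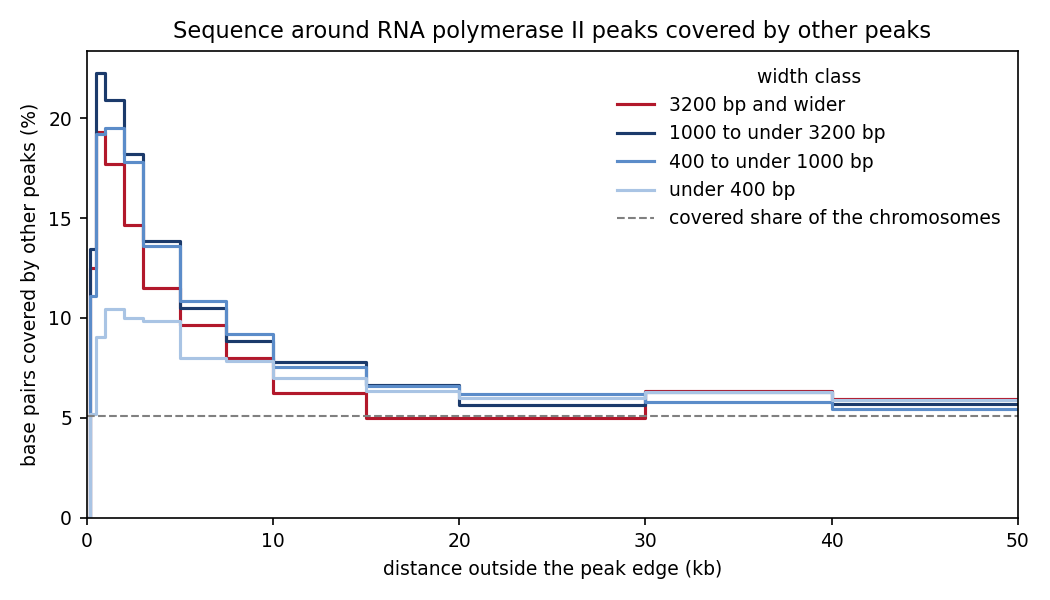
Percent of base pairs covered by other peaks (vertical axis) by distance outside the peak edge in kb (horizontal axis) for 4 width classes, with the covered share of the 5 chromosomes as a dashed line at 5.10%. Coverage beside wide peaks is 0 up to 200 bp, reaches 19.3% at 500 to 1000 bp and lies between 5.01 and 6.35% beyond 15 kb.

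Isolated wide peaks were as common as isolated narrower ones pooled, but unevenly so between chromosomes. No other peak lay within 10 kb of 79 wide peaks (20.8%) and of 640 narrower peaks (20.6%). By class of narrower peaks the share was 25.3% under 400 bp, 15.7% at 400 to under 1000 bp and 17.5% at 1000 to under 3200 bp. On II 22 of 71 wide peaks were isolated in this way (31.0%, 20.5 to 43.1), and on III 8 of 76 (10.5%, 4.66 to 19.7), with 15.5% on IV, 23.7% on X and 25.0% on V. II and III were singled out after their values were seen. On II, wide peaks had a neighbour within 10 kb less often than narrower peaks, at 69.0% and 81.2% (−12.2 points, −24.05 to −2.11), while on III the shares were 89.5% and 81.6% (7.83 points, −1.48 to 13.8). Within 1 kb the shares on III were 55.3% and 38.5% (16.7 points, 4.94 to 28.0). Isolation went with little change in size: the median width was 4687 bp for the 79 isolated wide peaks and 4353 bp for the 129 with a neighbour within 500 bp, and the median −log10 q was 45.5 and 54.3.

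The widest peaks of each chromosome stood in different surroundings. On II the 14486 bp peak at 1232948 to 1247433 (q = 6.93e-161) was also the most isolated wide peak of the chromosome, with 70.1 kb to the nearest other peak, a region of 56 bp. The 12624 bp peak at 3951179 to 3963802 had a wide neighbour of 5160 bp at 2128 bp, and its q was 3.01e-27, and the 10538 bp peak at 8010866 to 8021403 had 1 peak within 10 kb. On III the 19973 bp peak at 7718838 to 7738810 had its nearest neighbour at 7171 bp, the 11183 bp peak at 1615896 to 1627078 had none within 19.2 kb, and the 9299 bp peak at 13615442 to 13624740 had 3 peaks within 10 kb. None of these 3 had a wide nearest neighbour.

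On IV the 10422 bp peak at 14789292 to 14799713 and the 9186 bp peak at 2599632 to 2608817 had no peak within 19.7 and 33.3 kb, and the 9396 bp peak at 7906411 to 7915806 had 1 within 10 kb. On V the peaks of 12203 bp (8415098 to 8427300), 10668 bp (16776688 to 16787355) and 9865 bp (20771392 to 20781256) had their nearest neighbours at 6410, 379 and 2235 bp. On X the peaks of 12288 bp (16790802 to 16803089), 11682 bp (8015383 to 8027064) and 9401 bp (5112041 to 5121441) had theirs at 223, 1297 and 219 bp. Among the widest 3 of each chromosome, those of X thus all had a neighbour within 2 kb, while 2 of those on IV and 1 each on II and III had none within 10 kb.

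The extremes of isolation and crowding were elsewhere. The wide peaks farthest from any other were 5013 bp on V at 16355562 to 16360574, with 130 kb to the nearest peak, and 6108 bp on IV at 653112 to 659219, with 102 kb. On X the most isolated was at 9342947 to 9348062 (78.04 kb) and on III at 2170535 to 2174288 (75.1 kb). The most crowded was a 3353 bp peak near the right end of II at 15211062 to 15214414, with 12 other peaks within 10 kb. Other peaks covered 58.9% of the sequence within 10 kb of its edges. On III the peak at 13718183 to 13721800 had 8 such peaks, on IV that at 11478204 to 11481571 had 7, on V that at 11075353 to 11078727 had 6 and on X that at 5814346 to 5817726 had 6. All 5 of these crowded peaks were under 4000 bp wide.

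Long stretches held no listed wide peak. The longest was on V, 1.66 Mb at 17950021 to 19608166, with 24 narrower peaks (14.5 per Mb), and V also had one of 1.51 Mb at 2070357 to 3578927 with 9. On IV the stretch of 1.44 Mb at 15043552 to 16487491 held 18 narrower peaks. The stretch of 1.06 Mb on III at 4652310 to 5714374 was of another kind, with 83 narrower peaks (78.1 per Mb) and 0 wide ones, above the 47.8 narrower peaks per Mb of III as a whole. A stretch of 1.07 Mb on IV at 11957923 to 13027614 had 53 narrower peaks (49.5 per Mb). Stretches without listed wide peaks were thus found both where peaks of every width were sparse and where narrower peaks were dense. Regions at the 103 ranks ahead of the first listed row, of unknown chromosome and width, are not counted in these stretches.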

How the data were processed

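Chromatin immunoprecipitation with sequencing was done on 2 ChIP and 2 input libraries. Per the file headers, the deposited list gives positions on WormBase build WS180, and it names PeakSeq as its caller. The sources used here give neither the caller's version nor the aligner, and do not say how replicates were combined. The deposited q-value of each peak was used only to describe and rank peaks. Chromosome length was the end of the last listed peak, which gave 85.0 Mb for the 5 chromosomes.

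Gaps, flanking coverage and position were computed with Python 3.11.15, pandas 2.3.3 and scipy 1.17.1, and checked on simulated peaks. Shares carry exact 95% binomial intervals, densities exact Poisson intervals and differences Newcombe intervals. These cover counting error only and treat peaks as independent, which clustered peaks are not. With 1 list there is no replicate test, so no p-value was computed. Centre means the middle 33.3% of the length. Blocks were 1 Mb long.

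The members, comparisons and naming rule were chosen with earlier results of these data known. Named peaks were, per chromosome, the widest 3, the most isolated, the most crowded within 10 kb and that with the highest q, with groups of wide peaks and the 3 peaks on either side of the threshold. Blocks, stretches without wide peaks and single chromosomes singled out in the text were picked after their values were seen. Genes and sequences were left out, because the annotation at hand describes assembly WBcel235, a different build.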

Additional observations from a re-analysis of the deposited data

How the results depend on the processing

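Alternatives changed the width threshold, merged peaks within 500 bp, kept the best 50% of peaks by q, left out each chromosome, or changed the distance, the centre or the class compared. The share of covered sequence held by wide peaks, 45.0% in the report, was 59.2% at a threshold of 2400 bp, 26.5% at 4800 bp, 57.7% after merging and 53.8% in the best 50% by q. The first 2 of these follow from the threshold itself. The difference in the share with a neighbour was 4.44 points at 1 kb, against −2.89 points at 5 kb, and the cause was not tested. At 5 kb it was −3.63 points at a threshold of 2400 bp, −6.10 at 4800 bp, −4.13 after merging and −5.01 in the best 50% by q. With neighbours of at least 400 bp it was 1.38 points. The intervals of these alternatives at 5 kb all included 0. Set against peaks of 1000 to under 3200 bp alone, the difference at 5 kb was −6.72 points (−12.4 to −1.17), an interval without 0. The other 57 of 62 values stayed within the spread of the value reported: differences ran from −2.77 to 2.51 points in the centre, from −1.81 to 2.48 for a wide nearest neighbour and from −1.75 to 2.50 for flanking coverage, with both signs in each, and the ratio of densities from 1.20 to 1.63. At 4800 bp that ratio had an interval (0.726 to 1.98) that included 1. Among the 57, taking the centre over the span from first to last peak left the shares in the centre unchanged, at 40.9% and 42.0%. That setting therefore says nothing about stability.

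No paired analysis was possible because the replicates were combined into 1 list, and for the same reason no replicate was left out. The q-values imply 103 ranks ahead of the first listed row (2414 pairs of neighbouring rows then had equal q times rank, relative tolerance 1e-10, and 0 at any other offset up to 500). Regions at these ranks were not analysed here. Their chromosomes and widths are unknown. If all were wide and on these chromosomes, wide peaks would number 482 in place of 379. The shares, densities, gaps, neighbours, blocks, stretches and widest peaks given here do not count them.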

Other observations

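Regions as wide as these also arose from several narrower peaks in a row. After peaks within 500 bp were joined, the 3479 peaks became 2922 regions, of which 463 were at least 3200 bp wide. Of these, 363 held a wide peak and 100 were made of narrower peaks alone. With a joining distance of 1000 bp the numbers were 496 regions, 360 with a wide peak and 136 of narrower peaks alone, and with 2000 bp they were 577, 357 and 220. Regions holding 2 or more wide peaks numbered 15, 18 and 19 at these 3 distances. The widest region was the 19973 bp peak on III up to 1000 bp, and at 2000 bp it was 23160 bp on III, at 12595553 to 12618712, made of 4 peaks.

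Coverage by wide peaks at a distance from other wide peaks was low over 1 range, noticed after the values were seen. At 15 to 20 kb from the edge of a wide peak, 1.76% of base pairs lay in other wide peaks, and at 20 to 30 kb 1.87%, against 2.92% and 2.51% beside narrower peaks. At 3 to 5 kb it was 5.83%, against 4.93% beside narrower peaks, and at 30 to 40 kb 3.03%, against 2.64%. Wide peaks covered 2.29% of the chromosomes in all. No test was made of these values.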
